A study of Mus musculus with 14 samples.

Results

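The genes described here are 9 components of Hedgehog signalling, Ptch1, Cdon, Boc, Hhip, Smo, Sufu, Gli1, Gli2 and Gli3, measured in mouse neural stem cells with and without the transcriptional repressor Cic. They were chosen by name as receptors, co-receptors, effectors and response genes of the pathway, and they are 9 of the 23141 genes that the array measures. The cells were neural stem cell cultures from the subventricular zone, a germinal layer of the postnatal forebrain, taken on postnatal day 4. There were 7 cultures, called clones, each from a separate animal. Clones 1 to 4 were Cic+/+, the wild-type control. Clones 5 to 7 were Cic-/-, made from a conditional allele (Cicflox/flox), and the cultures of both genotypes had received adenoviral Cre, the recombinase that deletes the floxed sequence. Every clone was kept for 24 hours in NeuroCult proliferation medium with EGF, the growth factor on which such cultures are expanded, and for 24 hours in the same medium without it. The 4 groups were therefore Cic+/+ with EGF (4 arrays), Cic+/+ without EGF (4 arrays), Cic-/- with EGF (3 arrays) and Cic-/- without EGF (3 arrays). The comparisons ask what loss of Cic does in each medium, what EGF does in each genotype, and whether the EGF effect differs between the genotypes.

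Hedgehog ligands are lipid-modified secreted proteins, of which Sonic hedgehog (Shh) is the one best known in the subventricular zone, where it sustains neural stem cells. Ptch1 is the receptor that binds the ligand, and Cdon and Boc are co-receptors that help it to do so. Without ligand Ptch1 holds back Smo, the membrane protein that passes the signal on, and in the cytoplasm Sufu restrains the Gli transcription factors. When ligand is bound, Smo acts through the primary cilium, Gli2 becomes an activator, less Gli3 repressor is made, and Gli1, Ptch1 and Hhip are transcribed as response genes. Ptch1 and Hhip, a membrane protein that captures ligand, are thus both brakes on the pathway and readouts of it, while Cdon and Boc are known to be lowered by it in several tissues. Cic binds short octamers in the DNA and represses genes downstream of receptor tyrosine kinase signalling, of which the EGF receptor is an example.

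The start regions of Cdon and Ptch1 are shown because Cdon had the largest differences by genotype and by EGF among the 8 genes that could be tested, and because Ptch1 is both receptor and response gene. Each is the RefSeq window (GRCm38.p6) from 250 bases before to 50 bases after the annotated start of the gene, 5′ to 3′ on the strand of the gene, and the capitals mark the 50 bases from the start on. The Cdon window is chr9:35451826-35452125 on the plus strand and the Ptch1 window is chr13:63565686-63565985 on the minus strand.
Cdon: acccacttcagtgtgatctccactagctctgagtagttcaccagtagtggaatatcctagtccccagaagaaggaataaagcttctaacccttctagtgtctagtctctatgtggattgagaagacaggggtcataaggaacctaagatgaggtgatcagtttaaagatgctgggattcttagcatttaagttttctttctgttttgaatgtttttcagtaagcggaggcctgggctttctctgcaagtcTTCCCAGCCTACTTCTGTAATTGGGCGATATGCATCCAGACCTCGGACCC
Ptch1: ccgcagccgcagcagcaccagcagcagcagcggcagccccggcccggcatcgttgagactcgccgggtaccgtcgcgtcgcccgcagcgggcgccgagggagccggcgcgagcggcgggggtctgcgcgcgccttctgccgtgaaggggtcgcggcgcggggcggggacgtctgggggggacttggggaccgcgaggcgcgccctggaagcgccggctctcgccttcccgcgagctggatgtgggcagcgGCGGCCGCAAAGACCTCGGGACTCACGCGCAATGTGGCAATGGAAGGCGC
The windows differ in composition: that of Cdon is 44.7% G and C with 3 CpG dinucleotides, and that of Ptch1 is 76.3% with 47, where the median over all 32851 windows of the table is 52.7%. Windows were at hand for 7 of the 9 genes (Cdon, Gli2, Gli3, Hhip, Ptch1, Smo and Sufu). The core of the Gli motif, GACCACCCA, and both forms of the Cic octamer, TGAATGAA and TGAATGGA, were searched on both strands. They lie in 0.253%, 1.30% and 1.21% of all windows, and in 0 of the 7 windows of the genes described here, which says only that these letters are not in these 300 bases.

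All values are deposited log2 values, and the value of a gene is the median over the probesets that name it alone, 13 for Smo to 24 for Cdon. The array medians lay between 6.49 and 6.54 and the correlations between arrays between 0.93 and 0.973. Cic itself stood at 9.18 to 9.69 in the 8 Cic+/+ arrays and at 7.04 to 7.67 in the 6 Cic-/- arrays. The neural stem cell and radial glia markers Sox2 (11.14 to 11.98), Fabp7 (12.90 to 13.45) and Slc1a3 (11.87 to 13.15) were high in every array. Nes, which encodes the filament nestin, lay at 8.05 to 10.60 and Hes5, a Notch target, at 7.28 to 10.46, while Prom1 was low, at 4.25 to 5.57. Clone 4, a Cic+/+ clone, had Xist at 3.83 and 4.73 against 11.96 to 12.57 in the 12 other arrays. The genotypes were therefore not matched in Xist. Clone 5 stood apart in mitosis genes (summed as the mean of 9 genes), with values of 8.39 (EGF) and 8.24 (no EGF). The other Cic-/- arrays had 9.31 to 9.63 and the Cic+/+ arrays 9.56 to 10.41. The lower level with EGF was not confined to clone 5: the Cic-/- arrays had 8.39 to 9.46 and the Cic+/+ arrays 9.63 to 10.41. Without EGF these ranges were 8.24 to 9.63 and 9.56 to 9.75. In such bulk RNA, fewer cells of a type and less RNA per cell cannot be told apart.

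**Figure D1:**
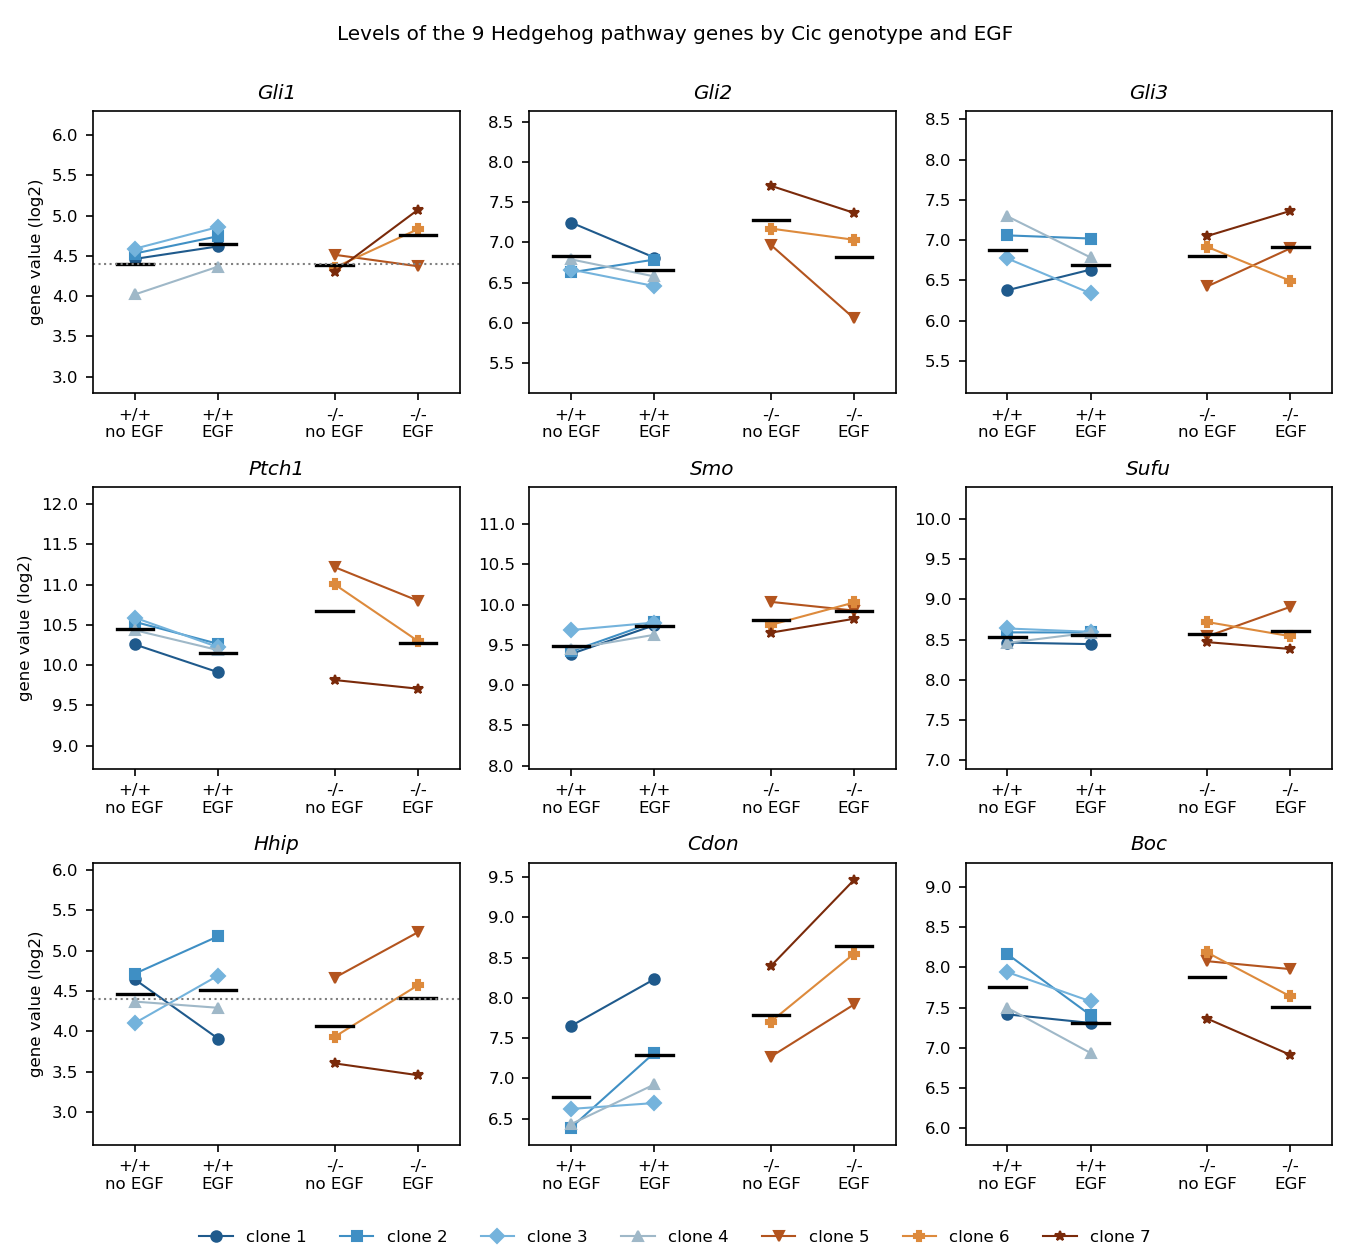
Levels of the 9 genes on every array (log2, each panel spans 3.5 log2 units) by Cic genotype and EGF; lines join the arrays of a clone, black bars are group means, and the dotted line in the panels of Gli1 and Hhip is the level under which a gene was left untested (4.40). Cdon goes up with EGF in every clone, Ptch1 and Boc go down in every clone, and Hhip lies around the dotted line.

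No Hedgehog gene passed the test in any of the 5 comparisons of the 4 groups. The test was limma on all 14 arrays with Benjamini-Hochberg adjustment over the 17356 genes tested, and the threshold for passing was an adjusted p of 0.05. Hhip could not enter it, because its mean level of 4.38 lay under the limit of 4.40 below which the dimmest 25% of genes were set aside. Of the other 8 genes, 0 passed for loss of Cic with EGF, where 0.317% of all genes did, and 0 for loss of Cic without EGF, where 0.553% did. For EGF the counts were 0 of 8 in Cic+/+ (0.899% of all genes) and 0 of 8 in Cic-/- (0.19%), and 0 of 8 for the difference of the EGF effect between genotypes (0.00576%, which is 1 gene). At an unadjusted p under 0.05 the counts were 1 (Cdon), 2 (Cdon and Smo), 0, 0 and 0, in the same order, where 10.6%, 10.8%, 12.5%, 9.8% and 2.86% of all genes reached it.

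The arrays of a clone come from the same animal, and a fit that compares them within the clone uses this. With the clone as a fixed block in limma, Cdon passed for EGF in Cic-/- cells, the 1 gene of 8 to do so (3% of all genes), and 0 of 8 passed in Cic+/+ cells (5.58% of all genes). A single EGF effect over all 7 clones, fitted with the same block, was added after Cdon, Boc and Ptch1 had been seen to move the same way in every clone. In it these 3 of 8 passed, where 12.4% of all genes did: Cdon rose with EGF, and Boc and Ptch1 fell with EGF. The fit restates the pattern that prompted it, so neither the count nor the p-values of these 3 genes in it are independent evidence. The genes are described in turn below, from the receptors to the transcription factors.

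Cdon, the co-receptor, had the widest spread over the arrays among the 9 genes. In Cic+/+ clones 1 to 4 its level was 8.23, 7.32, 6.69 and 6.92 with EGF, and 7.65, 6.39, 6.62 and 6.43 without EGF. In Cic-/- clones 5 to 7 it was 7.92, 8.55 and 9.47 with EGF, and 7.27, 7.70 and 8.39 without. Within each genotype the clones kept wide gaps in both media: clone 1 was the highest of the Cic+/+ clones, and clone 7 the highest and clone 5 the lowest of the Cic-/- clones. In each medium clone 1 lay above clone 5, so the genotypes overlapped, while clones 2 to 4 lay below every Cic-/- clone.

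By genotype, the mean Cdon level with EGF was 8.64 ± 0.78 (SD, n = 3) in Cic-/- and 7.29 ± 0.68 (n = 4) in Cic+/+ cells. The difference of 1.35 ± 0.43 (SE; 95% interval 0.42 to 2.28) is 2.55-fold and did not pass after limma's adjustment (adjusted p = 0.257). Without EGF the means were 7.79 ± 0.57 and 6.77 ± 0.59, a difference of 1.02 ± 0.43 (0.09 to 1.95), 2.02-fold, with adjusted p = 0.418. Without clone 1 the differences were 1.67 (adjusted p = 0.0804) and 1.31 (adjusted p = 0.160), and without clone 7 they were 0.94 and 0.71 (adjusted p = 0.428 and 0.528). Without clone 5, the clone lowest in mitosis genes, they were 1.72 and 1.28 (adjusted p = 0.177 and 0.298).

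The probesets of Cdon mostly shared this direction. Of its 24 probesets, 23 were higher in Cic-/- cells with EGF and 23 without EGF, and 21 and 17 of them by more than 1 log2 unit. The median over probesets was 1.32 with EGF and 1.31 without. The exception in each medium was probeset 17515933, at -1.81 with EGF and -0.85 without. Other cell type markers moved with the genotype. Pdgfra, the growth factor receptor of oligodendrocyte progenitors, fell by 2.61 ± 0.38 with loss of Cic in EGF (adjusted p = 0.00819), 1 of 6 markers of those cells to pass. The mean of the 6 was 8.82 to 9.25 in Cic-/- against 9.73 to 10.25 in Cic+/+ cells. Without EGF, 4 of 5 oligodendrocyte markers fell with loss of Cic (Cldn11, Enpp6, Mag, Mbp), with list means of 5.06 to 5.49 against 7.31 to 7.90, and Cd24a, 1 of 6 neuroblast and neuron markers, rose. Of 9 mitosis genes 0 passed for loss of Cic in either medium. Their median change was -0.92 with EGF and -0.47 without. In limma's test 7 of the 9 had an unadjusted p under 0.05 with EGF, where 10.6% of all genes did. Without EGF it was 1 of 9, where 10.8% of all genes did. The part of these markers and mitosis genes in the Cdon difference was not tested.

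**Figure D2:**
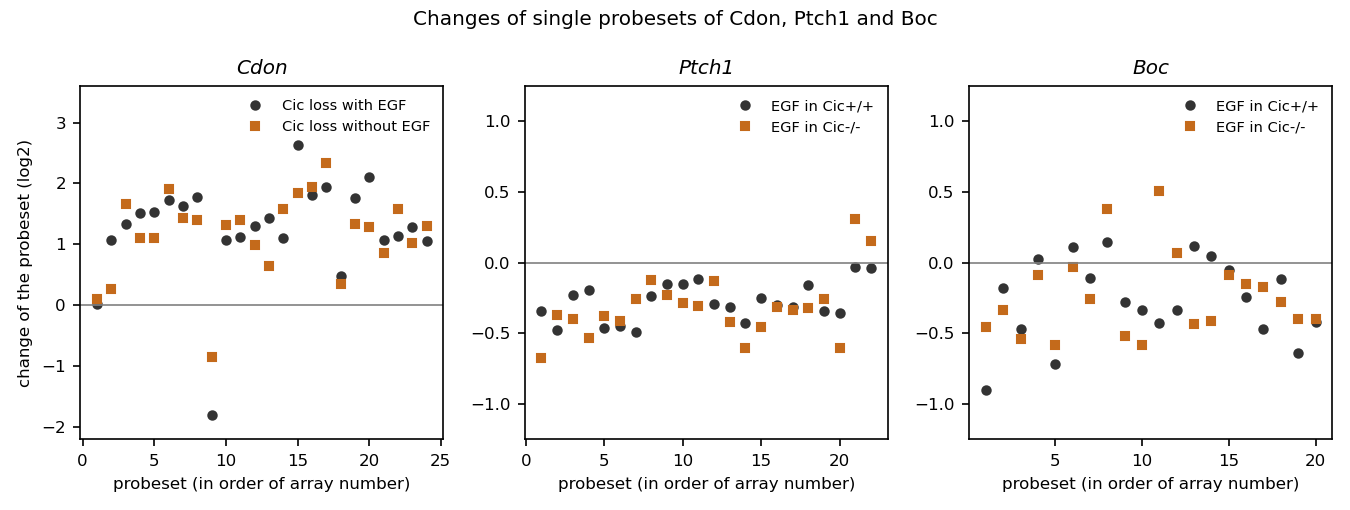
Log2 change of each probeset of Cdon between genotypes (24 probesets, left), and of Ptch1 (22, middle) and Boc (20, right) with EGF, in order of their number on the array; black circles and orange squares are the 2 media or genotypes. Of the Cdon probesets 23 of 24 lie above 0 in each medium, and all 22 of Ptch1 lie below 0 in Cic+/+ cells.

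By EGF, Cdon was higher in 7 of 7 clones. The Cic+/+ clones 1 to 4 differed by 0.58, 0.93, 0.07 and 0.49, and the Cic-/- clones 5 to 7 by 0.65, 0.84 and 1.07. Clone 3 barely moved, and the other 6 clones moved by 0.49 or more. Of all genes, 6.04% were higher with EGF in all 7 clones, and Cdon was the only Hedgehog gene among the 8 tested to be so. Over the 7 clones Cdon rose by 0.66 ± 0.12 (95% interval 0.40 to 0.92), 1.58-fold (limma with the clone as block, adjusted p = 0.00453). It passed on leaving out any 1 clone (0.59 to 0.76, adjusted p = 0.00304 to 0.0186). The rise in 7 of 7 clones prompted this fit, so passing without a clone is no independent evidence for Cdon. Its 24 probesets were higher with EGF in 23 cases.

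Within genotypes the EGF difference of Cdon was 0.52 in Cic+/+ and 0.85 in Cic-/- cells. Without a block the errors were 0.40 and 0.46 (adjusted p = 0.654 and 0.601). With the clone as a random block the adjusted p was 0.335 in Cic+/+ and 0.206 in Cic-/- cells. With the clone as a fixed block the errors were 0.15 and 0.17. The adjusted p became 0.0711 in Cic+/+ and 0.0265 in Cic-/- cells, so Cdon passed in the latter with the fixed block alone. The 2 differences are not shown to be unequal: Cic-/- minus Cic+/+ was 0.34 ± 0.61 (95% interval -0.98 to 1.65, adjusted p = 1.00), and 0.34 ± 0.23 with the block (adjusted p = 0.939).

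Boc, the paralogous co-receptor, went the other way with EGF. In Cic+/+ clones 1 to 4 it stood at 7.31, 7.41, 7.58 and 6.94 with EGF and at 7.42, 8.16, 7.94 and 7.50 without. In Cic-/- clones 5 to 7 it stood at 7.98, 7.64 and 6.91 with EGF and at 8.08, 8.18 and 7.36 without. The groups overlapped in each comparison, but within a clone the level with EGF was the lower in 7 of 7. Clones 1 to 4 differed by -0.11, -0.76, -0.36 and -0.56, and clones 5 to 7 by -0.10, -0.55 and -0.45. They were smallest in clones 1 and 5. Over all genes, 7.43% were lower with EGF in all 7 clones, and of the 8 Hedgehog genes tested 2 were, Boc and Ptch1.

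Over the 7 clones Boc fell by 0.41 ± 0.10 (95% interval -0.63 to -0.19), 1.33-fold, with adjusted p = 0.0216. This call is lost without clone 2 (adjusted p = 0.0720), clone 3 (0.0524), clone 4 (0.0569) or clone 6 (0.0563), and with other gene values: the mean over probesets gave -0.25 (adjusted p = 0.0710) and the brightest probeset -0.02 (0.903). Of the 20 Boc probesets 18 were lower with EGF on average over the clones. Between genotypes the Boc differences were 0.20 (95% interval -0.39 to 0.80) with EGF and 0.12 (-0.47 to 0.71) without, and neither passed (adjusted p = 0.855 and 0.930).

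Ptch1, the receptor and response gene, also had lower levels with EGF. Its levels in Cic+/+ clones 1 to 4 were 9.91, 10.26, 10.22 and 10.19 with EGF, against 10.26, 10.54, 10.59 and 10.44 without. In Cic-/- clones 5 to 7 they were 10.80, 10.30 and 9.71 with EGF, against 11.22, 11.00 and 9.82 without. The Cic+/+ clones lay within 0.35 of each other in each medium, whereas the Cic-/- clones spread over more than 1 log2 unit: clones 5 and 6 lay above all Cic+/+ clones of the same medium and clone 7 below them. The SD was 0.55 and 0.76 in Cic-/- cells with and without EGF, and 0.16 and 0.15 in Cic+/+ cells. The genotype differences of 0.12 ± 0.30 (95% interval -0.51 to 0.76) and 0.22 ± 0.30 (-0.41 to 0.86) did not pass (adjusted p = 0.928 and 0.860), and they were -0.14 and -0.05 without clone 5.

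With EGF, Ptch1 was lower in 7 of 7 clones, with differences of -0.35, -0.27, -0.37 and -0.25 for clones 1 to 4, then -0.42, -0.70 and -0.11 for clones 5 to 7. The 4 Cic+/+ clones lay close together and the 3 Cic-/- clones spread on each side of them. Over the 7 clones it fell by 0.35 ± 0.09 (95% interval -0.55 to -0.15), 1.28-fold, with adjusted p = 0.0275. The call is lost without clone 2 (adjusted p = 0.0622), clone 3 (0.0709), clone 5 (0.0589) or clone 6 (0.0702), and with the brightest probeset (-0.23, adjusted p = 0.204). Of 22 probesets 22 were lower with EGF in Cic+/+ cells (-0.49 to -0.03) and 20 in Cic-/- cells (-0.68 to 0.31).

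**Figure D3:**
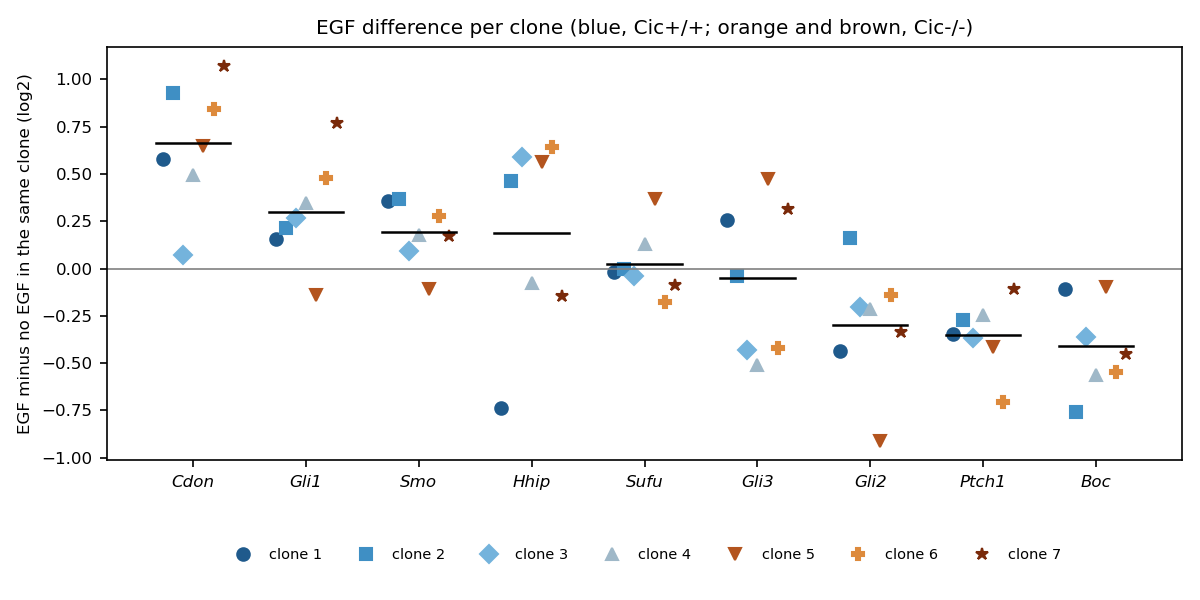
EGF difference (level with EGF minus level without EGF in the same clone, log2) of the 9 genes in the 7 clones, with the mean over clones as a black bar; blue symbols are Cic+/+ and orange or brown symbols Cic-/- clones. Cdon lies above 0 in all 7 clones, Ptch1 and Boc lie below 0 in all 7, and the other genes have clones on both sides.

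Ptch1 and Boc resembled each other over the arrays. After each gene was centred on its own mean, the root mean square difference between them was 0.23 over the 14 arrays. That made Ptch1 the 36th nearest of 17355 genes to Boc, and Boc the 85th nearest to Ptch1, where the median over all genes was 0.48 and 0.49. The next smallest rank among the 8 genes was 728, of Sufu for Smo. Cdon had as its nearest Hedgehog gene Gli2, at 0.74 and rank 1185. The arrays share clones and media, so these are descriptions.

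Markers of several glial types also moved with EGF, in the same fit over 7 clones, in which 12.4% of all genes passed. With lists this short, counts near that share are read no further. Of 6 astrocyte markers 4 fell (Aldoc, Aqp4, Gja1, S100b), and the mean of the 6 was 9.01 to 9.77 with EGF and 10.16 to 10.65 without in Cic+/+ cells, and 9.09 to 9.26 and 9.57 to 10.06 in Cic-/- cells. Of 5 oligodendrocyte markers 3 fell (Enpp6, Mag, Mbp); their list mean was 5.56 to 5.98 with and 7.31 to 7.90 without EGF in Cic+/+ cells, and 5.13 to 5.45 and 5.06 to 5.49 in Cic-/- cells. Of 6 progenitor markers of that lineage 2 fell (Gpr17, Sox10), of 6 neuroblast and neuron markers 1 fell (Dcx), and among 8 stem cell markers Nes rose and Hes5 fell. Of 9 mitosis genes 0 passed, as did 0 of 5 ependymal, 0 of 4 microglial and 0 of 3 endothelial markers. Of 4 fibroblast and mural markers Col1a1 rose. The listed markers Aif1 and Ptprc of microglia, Cldn5 and Tek of endothelium, and Dcn and Lum of fibroblasts were under the dim limit. The other markers of these lists lay above it, with means from 4.42 (Cdh5) to 6.48 (Col1a1). The part of the listed cell types in the EGF differences of Cdon, Boc and Ptch1 was not tested.

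Smo, the signal transducer, varied little. It stood at 9.74, 9.78, 9.78 and 9.63 in Cic+/+ clones 1 to 4 with EGF and at 9.39, 9.42, 9.68 and 9.45 without. In Cic-/- clones 5 to 7 it stood at 9.93, 10.03 and 9.82 with EGF and at 10.03, 9.75 and 9.65 without. With EGF all 3 Cic-/- clones lay above all 4 Cic+/+ clones, which made Smo the 1 gene of 8 whose genotypes did not overlap in that medium; of all genes 11.7% did not. Without EGF 0 of the 8 genes were separated in this way, against 9.39% of all genes. Smo overlapped there because clone 3 at 9.68 lay above clone 7 at 9.65.

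The genotype difference of Smo was 0.19 ± 0.13 with EGF (95% interval -0.09 to 0.48, adjusted p = 0.645) and 0.33 ± 0.13 without EGF (0.04 to 0.61, adjusted p = 0.383). Its probesets were divided: 7 of 13 were higher in Cic-/- cells with EGF and 6 of 13 without. With EGF, Smo differed by 0.25 ± 0.12 in Cic+/+ and 0.11 ± 0.14 in Cic-/- cells and did not pass (adjusted p = 0.431 and 0.867). In Cic+/+ cells 5 of 13 probesets were higher with EGF, and the brightest probeset gave -0.06; in Cic-/- cells 10 of 13 were higher, and the brightest gave -0.02. It was higher with EGF in 6 of 7 clones, and clone 5 was the exception at -0.11. Over the clones the difference was 0.19 ± 0.09 (adjusted p = 0.191).

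Sufu, the cytoplasmic inhibitor, was the steadiest of the 9. It lay between 8.38 and 8.91 in the 14 arrays, and the group means lay between 8.54 and 8.61. The EGF and genotype differences in the 4 comparisons of groups were 0.02 to 0.06, and the 95% intervals of the genotype differences were -0.24 to 0.36 with EGF and -0.26 to 0.34 without. With 3 and 4 clones, differences within those bounds are not excluded, and the bounds are no limit of detection. The highest value and the largest EGF difference belonged to clone 5, at 8.91 with EGF and 8.54 without.

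Gli1, the response gene of the pathway that is read most often, lay close to the dim limit. Its levels were 4.62, 4.75, 4.86 and 4.37 in Cic+/+ clones 1 to 4 with EGF and 4.46, 4.53, 4.59 and 4.02 without. In Cic-/- clones 5 to 7 they were 4.37, 4.83 and 5.07 with EGF and 4.51, 4.36 and 4.30 without. Only 9 of its 15 probesets had a mean above the dim limit. Gli1 was higher with EGF in 6 of 7 clones (0.16 to 0.77), and lower in clone 5 (-0.14).

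The EGF difference of Gli1 was 0.25 ± 0.18 in Cic+/+ and 0.37 ± 0.20 in Cic-/- cells (adjusted p = 0.620 and 0.607), and 0.30 ± 0.11 over the 7 clones (95% interval 0.06 to 0.54, adjusted p = 0.0983). Without clone 5 the last was 0.37 and passed (adjusted p = 0.0492), but its sign turned with the brightest probeset (-0.15), and only 8 of 15 probesets were higher with EGF. Between genotypes Gli1 differed by 0.11 (-0.29 to 0.52) with EGF and by -0.01 (-0.42 to 0.40) without. The 5 tested genes with the pattern nearest to that of Gli1 over the 14 arrays were Esrp2, Rln3, Nabp2, H2ab2 and Aqp5, with root mean square differences of 0.13 to 0.15 against a median of 0.37 over 17355 genes. The SD of Gli1 itself was 0.27.

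Gli2, the main activator, was highest in Cic-/- cells without EGF. Its group means were 6.66 ± 0.17 and 6.83 ± 0.29 in Cic+/+ cells with and without EGF (n = 4), and 6.82 ± 0.68 and 7.28 ± 0.38 in Cic-/- cells (n = 3). Loss of Cic without EGF gave 0.45 ± 0.27 (95% interval -0.14 to 1.03, adjusted p = 0.603), with 16 of 16 probesets higher (0.08 to 1.07), and with EGF 0.16 ± 0.27 (-0.43 to 0.75, adjusted p = 0.891). The EGF difference was -0.91 in clone 5 (6.06 against 6.97), -0.43 to -0.14 in 5 further clones and 0.16 in clone 2. Over the clones it was -0.30 ± 0.12 and did not pass (adjusted p = 0.129).

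Gli3, the main repressor, had no common direction. Its 14 values lay between 6.34 and 7.36, and the group means between 6.70 and 6.92. The EGF difference was positive in 3 clones and negative in 4, from -0.51 in clone 4 to 0.47 in clone 5, with -0.05 ± 0.14 over all 7 (95% interval -0.35 to 0.25, adjusted p = 0.851). The genotype differences were 0.22 (-0.32 to 0.77) with EGF and -0.08 (-0.62 to 0.47) without.

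Hhip, the ligand trap, had values of 3.45 to 5.23 around the dim limit, and 10 of its 17 probesets lay above it. EGF gave a higher value in 4 clones and a lower one in 3. When no gene was set aside as dim, Hhip differed between genotypes by -0.10 ± 0.38 with EGF and by -0.39 ± 0.38 without, and with EGF by 0.06 ± 0.36 in Cic+/+ and 0.35 ± 0.41 in Cic-/- cells. It passed in none of these 4 (adjusted p = 0.816 to 0.975).

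Over the 8 tested genes, 8 of 8 differences were positive after loss of Cic with EGF, with a median of 0.18, against a median of 0.02 over all genes. Without EGF 6 of 8 were positive with a median of 0.17, against -0.00 over all genes. The median size, whatever the sign, was 0.18 with EGF against 0.17 over all genes. With the mean of probesets Gli1, Gli3 and Sufu turned negative with EGF, and with the brightest probeset Gli3, Ptch1 and Sufu did. Apart from Cdon, the differences with EGF were 0.06 to 0.22. Those of Boc, Ptch1 and Sufu were -0.03, -0.14 and -0.09 without clone 5, and those of Gli1 and Gli2 were -0.05 and -0.11 without clone 7. For the difference of the EGF effect between the genotypes the 8 estimates ran from -0.29 (Gli2) to 0.34 (Cdon) with a median of 0.05, and 0 of 8 had an unadjusted p under 0.05.

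**Figure D4:**
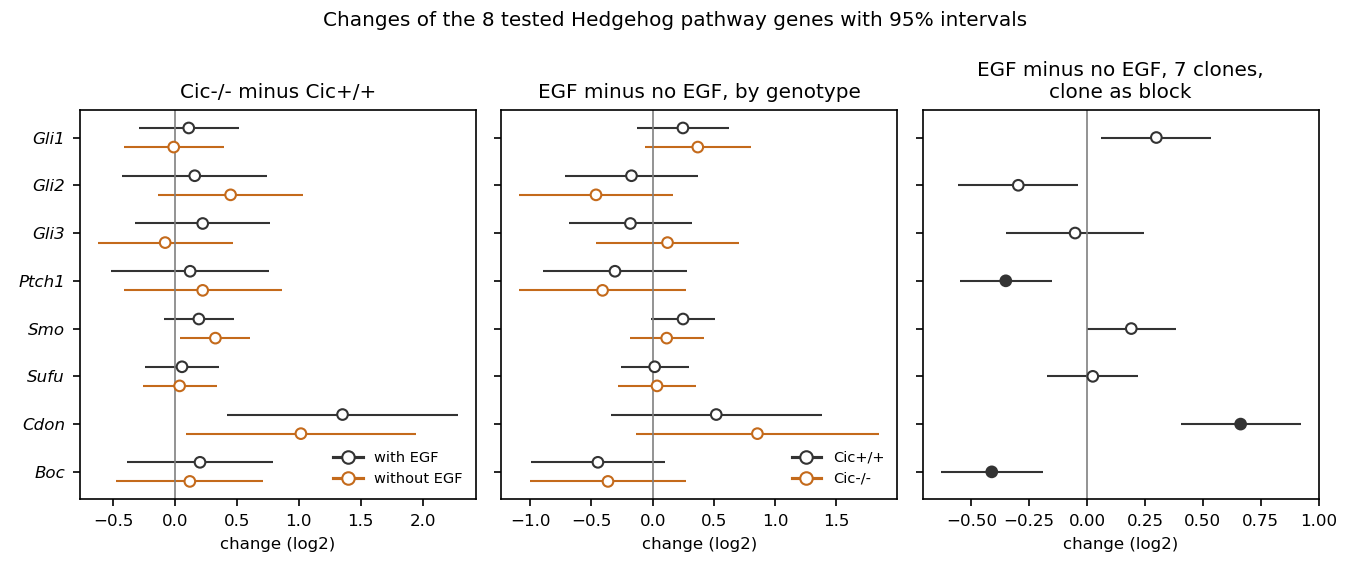
Log2 change with its 95% interval for the 8 tested genes: Cic-/- minus Cic+/+ in each medium (left), EGF minus no EGF in each genotype (middle), and EGF minus no EGF over the 7 clones with the clone as block (right, on a narrower axis). Filled circles passed at an adjusted p under 0.05: only Cdon, Boc and Ptch1 in the right panel are filled.

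The rest of the pathway was followed in 45 further genes that were tested. In each of the 5 comparisons 0 of 45 rose and 0 fell in limma's test without a block. An unadjusted p under 0.05 was reached by 3, 7, 5, 10 and 1 of the 45. Of all genes, 10.6%, 10.8%, 12.5%, 9.8% and 2.86% reached it, in the same order. The medians of the 45 lay between -0.07 and 0.08. In the fit over 7 clones 4 of 45 rose with EGF and 2 fell, a share near the 12.4% of all genes that passed in it. By role, 1 of 8 genes for ligands and their release passed, 0 of 4 further receptors and membrane regulators, 2 of 19 genes of the cytoplasm and the cilium, and 3 of 14 response genes; with lists this short, these counts are read no further against that 12.4%. The 6 genes that passed are named after their values had been seen. Passing again without a clone is therefore no independent evidence for any of them.

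Dhh, which encodes the ligand Desert hedgehog, had the largest EGF difference of them. It stood at 7.95, 7.88, 8.83 and 8.96 in Cic+/+ clones 1 to 4 with EGF and at 6.92, 6.40, 7.02 and 7.12 without. In Cic-/- clones 5 to 7 it stood at 7.93, 8.59 and 7.69 with EGF and at 5.34, 6.71 and 6.96 without. Dhh was higher with EGF in 7 of 7 clones, as were 6.04% of all genes, and all 5 Dhh probesets were higher with EGF. Over the 7 clones Dhh rose by 1.62 ± 0.19 (95% interval 1.21 to 2.03), 3.08-fold (adjusted p = 0.00042), and it passed on leaving out any 1 clone (adjusted p = 0.000263 to 0.0022).

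Within genotypes Dhh was higher with EGF by 1.54 ± 0.35 in Cic+/+ and 1.73 ± 0.41 in Cic-/- cells, which did not pass without a block (adjusted p = 0.0624 and 0.112). With the clone as block it rose in both (adjusted p = 0.00663 and 0.0129). The difference between them was 0.19 ± 0.54 (95% interval -0.96 to 1.35, adjusted p = 1.00). By genotype Dhh was at -0.33 ± 0.38 with EGF and -0.53 ± 0.38 without (adjusted p = 0.823 and 0.676).

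The other ligand genes did not pass. Shh had group means of 4.79, 4.84, 5.04 and 4.68 (Cic+/+ with and without EGF, then Cic-/-), and an EGF difference over the clones of 0.13 ± 0.14 (95% interval -0.17 to 0.42, adjusted p = 0.605). Ihh, Indian hedgehog, gave 0.15 ± 0.13 (-0.14 to 0.43, adjusted p = 0.514). The genes for Hhat, which adds palmitate to the ligand, Disp1, which releases it, and Scube1, a secreted carrier, gave 0.11 ± 0.11, -0.28 ± 0.11 and 0.08 ± 0.08 (adjusted p = 0.567, 0.141 and 0.576). Hhat was lower after loss of Cic without EGF by -0.49 ± 0.13 (adjusted p = 0.131) and did not pass. Scube2, of the same list, had group means of 6.34, 5.77, 7.34 and 6.18, in the order given for Shh. Its difference for loss of Cic with EGF was 1.00 ± 0.46 (95% interval 0.01 to 1.99, limma's adjusted p = 0.469).

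Among the response genes 2 D cyclins, drivers of entry into the cell cycle that respond to growth factors as well as to Hedgehog, rose with EGF over the 7 clones. Ccnd1 rose by 1.10 ± 0.17 (95% interval 0.73 to 1.48, adjusted p = 0.00218) and passed on leaving out any 1 clone. Clones 1 to 4 differed by 0.25, 1.26, 1.53 and 1.34, and clones 5 to 7 by 1.39, 1.58 and 0.36, so clones 1 and 7 moved least. Ccnd2 rose by 0.45 ± 0.12 (adjusted p = 0.0308), higher in 6 of 7 clones; leaving out any 1 clone other than clone 4 ended this call, with an adjusted p of at most 0.0849 (clone 3), as did the brightest probeset (0.0961). Hhipl1, a relative of Hhip, fell by 0.40 ± 0.11 (adjusted p = 0.0395), and leaving out clone 1, 2, 3, 4 or 6 ended this call, with an adjusted p of at most 0.0836 (clone 2), as did the mean over probesets (0.0576).

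In the cytoplasm and the cilium, Prkacb and Kif3a passed. Prkacb encodes a catalytic subunit of protein kinase A, which primes the Gli proteins for processing, and rose by 0.58 ± 0.12 (adjusted p = 0.011; up to 0.0388 on leaving out any 1 clone), higher in 7 of 7 clones (0.06 to 0.95). Kif3a encodes a motor subunit needed to build cilia, and fell by 0.32 ± 0.08 (adjusted p = 0.0286), with 18 of 18 probesets lower. Leaving out any 1 clone other than clone 1 ended the Kif3a call, with an adjusted p of at most 0.0762 (clone 2).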

How the data were processed

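RNA of 7 clones in 2 media was labelled with biotin and hybridised to Affymetrix whole-transcript arrays. The deposited values are on the log2 scale, per the values themselves, and RMA, which corrects the background, normalizes by quantiles and summarises probes, is named by the authors' processing notes; neither its version nor a genome build is named there. Of 269751 probesets, 233753 name 1 gene, 5106 several and 30892 none. Symbols were matched to RefSeq's table, 20875 directly and 2208 through a synonym. The value of a gene is the median over its probesets, which can hide a transcript that moves against the rest.

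Genes in the lowest 25% of mean levels, those under 4.40, were left out, and limma 3.58.1 in R 4.3.3 fitted 4 group means over 14 arrays, with Benjamini-Hochberg adjustment over 17356 genes (passed under 0.05). The number of arrays limits the precision. The fit without a block was tested on simulated data, for loss of Cic with EGF and for EGF in Cic+/+ cells. The fits with a block were not tested in this way. Clone numbers pair arrays of the same animal, per the labels. Deviations from the group means correlated within clones 1 to 7 at 0.473, 0.323, 0.459, 0.337, 0.584, 0.156 and 0.616. The highest correlations with another clone of the same genotype were -0.16, -0.073, 0.00124, -0.0388, 0.163, 0.121 and -0.307, so those of clone 6 were close. Because of the pairing, fits with the clone as a fixed block stand beside the fit without a block. So does 1 EGF effect over 7 clones (added after 3 genes were seen to move the same way in every clone).

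The 9 genes, the pathway lists and the markers were chosen with earlier results of these data known. The naming rule took the 9 genes, list genes that pass, and up to 6 that do not in list order. Alternatives changed the summary of probesets, dim filter, scaling, variance prior, block, arrays and clones. Sequences are RefSeq's; Gli1 and Boc are without one here.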

Additional observations from a re-analysis of the deposited data

Results flagged for a closer look

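Of 18 tests of the 9 genes in the 2 groups of 4 arrays, 1 found an array far from the others. In Cic+/+ cells with EGF, Sufu stood at 8.44 in clone 1 and at 8.59 to 8.60 in clones 2 to 4. The gap was 0.939 of the whole range, above Dixon's 95% critical value for 4 values. By chance about 1 in 20 groups would be picked out in this way. The groups of 3 arrays were too small to be tested so.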

How the results depend on the processing

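Of 739 alternative values of the 8 tested genes, 661 kept their direction and their side of the threshold. Hhip, untested in the main fit, is not among them. In the comparisons of the 4 groups 0 Hedgehog genes passed in every alternative but 1: with the clone as a fixed replicate block, Cdon passed for EGF in Cic-/- cells (1 of 8). The block changed no other call of the 8 genes there. Over the 7 clones, 3 genes passed, 1 with the brightest probeset, and 1 to 3 on leaving out a clone. For all genes the counts moved more. With EGF, 55 genes passed for loss of Cic, and 19 to 60 without a clone. Without EGF it was 96, with 170 for the mean of probesets, 44 on the compared arrays alone, and 54 to 125 without a clone. For EGF in Cic+/+ cells it was 156, with 896 for the clone as random block, 969 as fixed block, 256 for the mean of probesets, and 17 to 217 without a clone. For EGF in Cic-/- cells it was 33, with 3 on the compared arrays alone, 363 and 520 with the random and fixed block, 50 to 70 in 5 others, and 0 to 68 without a clone. For the difference between genotypes it was 1, with 0 to 7 elsewhere. Over 7 clones it was 2146, and 1349 to 2170 without a clone.

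Some signs turned, none of them for a value that passed. With the mean of probesets these were, for loss of Cic with EGF, Gli1 -0.00896, Gli3 -0.0317 and Sufu -0.094; without EGF, Gli1 0.179 and Sufu -0.0196; for EGF, Gli3 0.0278 in Cic+/+, and Gli1 -0.0311 and Sufu -0.022 in Cic-/-; for the difference, Gli1 -0.188, Smo 0.0564 and Sufu -0.0744; over 7 clones, Gli3 0.0296. With the brightest probeset they were, for loss of Cic with EGF, Gli3 -0.242, Ptch1 -0.00791 and Sufu -0.0060; without EGF, Gli1 0.0458 and Gli3 0.219; for EGF in Cic+/+, Boc 0.0223, Gli1 -0.158, Gli3 0.215 and Smo -0.0567, and in Cic-/-, Gli1 -0.131, Gli3 -0.247, Smo -0.0152 and Sufu -0.217. For the difference they were Boc -0.108, Cdon -0.13, Gli2 0.134, Gli3 -0.462, Smo 0.0415 and Sufu -0.229, and over 7 clones Gli1 -0.146, Gli3 0.0167, Smo -0.0389, Sufu -0.086 and Scube1 -0.0905. With arrays centred on the median gene, Gli1 without EGF was 0.024 and the difference of Sufu -0.0156. The cause was not tested.

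On leaving out each clone in turn, other signs turned. The ranges for loss of Cic with EGF were -0.032 to 0.50 (Boc), -0.14 to 0.40 (Ptch1), -0.091 to 0.17 (Sufu), -0.046 to 0.31 (Gli1) and -0.11 to 0.54 (Gli2). Without EGF they were -0.14 to 0.053 (Gli1), -0.25 to 0.11 (Gli3), -0.045 to 0.66 (Ptch1), -0.035 to 0.38 (Boc) and -0.034 to 0.091 (Sufu). For EGF they were -0.021 to 0.035 (Sufu, Cic+/+), and -0.055 to 0.39 (Gli3) and -0.13 to 0.14 (Sufu) in Cic-/- cells. For the difference they were -0.051 to 0.20 (Boc), -0.15 to 0.12 (Sufu), -0.25 to 0.046 (Ptch1) and -0.080 to 0.38 (Gli1). Over 7 clones Gli3 was 0.011, 0.024 and 0.0096 without clone 3, 4 or 6, and Sufu -0.033 without clone 5. The list gene Disp1 passed without clone 1 (-0.37, adjusted p = 0.0379). Not run, because they do not apply, were the fixed block for genotypes and the compared arrays alone for the difference; Gli1 has no value when the lowest 50% of genes are left out.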
